A study of Mus musculus with 66 samples.

Results

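The genes described here encode the proteins of the cytosolic ribosome. They were taken by name: protein-coding mouse genes whose symbol begins with Rpl or Rps and a number, together with Rplp0, Rplp1, Rplp2 and Rpsa, and without pseudogene, -rs, ribosomal S6 kinase and Rps19bp1 names. The rule found 85 of the 39179 genes in the count tables, 52 of the large subunit and 33 of the small subunit. It left out 235 genes of similar name, 229 of them annotated as pseudogenes. RNA was sequenced from BC57, a mouse bladder cancer cell line grown in culture, and from mouse normal urothelium, the epithelium lining the bladder. A harvested pellet of BC57 cells and the urothelium of 9 mice were each split: one part was kept fresh frozen (FF), the other was held in formalin for 24 hours and embedded in paraffin (FFPE). No genetic change or treatment is given for either sample, and how the tissue of the 9 mice was combined is not stated. Each of 22 groups holds 3 repeat libraries: Ovation SoLo at an input of 50 pg, 250 pg or 2 ng, SMARTer Stranded Pico at 250 pg or 2 ng (both made from total RNA), and, for FF RNA alone, poly(A)-selected libraries from 1 µg. Repeat libraries share an RNA sample, so every p-value given here reflects technical spread alone, with no replication over mice or cultures.

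A ribosome consists of ribosomal RNA and one copy of nearly every ribosomal protein, so the genes are transcribed at high and broadly similar rates in growing cells. Their mRNAs are short, stable and polyadenylated, and many begin with a run of pyrimidines, the 5′ terminal oligopyrimidine (TOP) tract, through which the mTOR kinase pathway sets their translation. A few members have a paralogue that can stand in for them in some tissues, and many carry small nucleolar RNAs (snoRNAs) in their introns, which guide modification of ribosomal RNA. In mammals the genome also holds many processed pseudogenes copied from these mRNAs.

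Start-site sequence was looked up because a pyrimidine start is a feature that the name rule did not use. Of the 85 genes, 65 had a transcription start in RefSeq (GRCm38.p6), the first one listed being used. In the 30 bases around it, on the gene's own strand, a C followed by at least 5 C or T bases was found in 34 genes, or 52.3%. The same run was found in 22.4% of the 27025 genes with a listed start, and in 27.9% of 68 mitochondrial ribosomal protein genes. A run across the start itself was found in 13 of the 65 members, or 20%, in 2.49% of all genes and in 0 of the mitochondrial ribosomal protein genes. The sequences that follow belong to genes the later results turn on, 7 with a run and 4 without, and do not show its share among the members. Each holds 15 bases before the start and 15 from it onward, 5′ to 3′, and capitals mark the pyrimidine run.
Rps27, chr3:90213634-90213663, minus strand: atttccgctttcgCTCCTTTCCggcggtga
Rps6, chr4:86857353-86857382, minus strand: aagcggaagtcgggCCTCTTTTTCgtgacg
Rps18, chr17:33955651-33955680, minus strand: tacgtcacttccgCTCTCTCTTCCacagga
Rpl7a, chr2:26910792-26910821, plus strand: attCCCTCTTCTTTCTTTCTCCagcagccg
Rplp2, chr7:141447636-141447665, plus strand: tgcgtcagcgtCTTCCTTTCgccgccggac
Rpl22l1, chr3:28805493-28805522, plus strand: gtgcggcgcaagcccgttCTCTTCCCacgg
Rps27l, chr9:66946071-66946100, plus strand: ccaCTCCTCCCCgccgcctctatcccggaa
Rpl19, chr11:98026695-98026724, plus strand: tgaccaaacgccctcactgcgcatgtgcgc
Rps3, chr7:99483695-99483724, minus strand: cttgcaagggtcgccgcgctgcgcggcgtc
Rpl37a, chr1:72711245-72711274, plus strand: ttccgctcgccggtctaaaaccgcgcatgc
Rpl41, chr10:128549154-128549183, minus strand: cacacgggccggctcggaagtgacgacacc
In Rps27, Rps6, Rps18, Rpl7a and Rplp2 the run spans the listed start. It lies downstream of the start in the paralogue Rpl22l1 and upstream in Rps27l. Rpl19, Rps3, Rpl37a and Rpl41 have none in the window. A match is a description of these letters and not a mapped start in these samples.

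Depth differed by kit: an Ovation library held 928722 to 4706030 counts, a SMARTer library 651879 to 7152648 and a poly(A) library 18499591 to 36187226. The urothelium label was checked against markers. Uroplakins, keratins and Trp63 (8 genes) summed to between 9947 and 10735 CPM (read counts scaled for library size) in the poly(A) urothelium libraries. In those of BC57 they summed to between 357 and 363. The same urothelium libraries held fibroblast markers (6 genes) at 9791 to 10384 CPM, against 5.97 to 8.14 in BC57. Some libraries stood apart from their repeats and are named before the results. The library numbered 3 of SMARTer FFPE urothelium held 1.08% ribosomal protein counts at 2 ng and 1.28% at 250 pg, where the other 4 such libraries held 2.97% to 3.05%. At 250 pg, library 3 of Ovation FF urothelium held 2.04%, against 2.99% and 3.16% in its repeats.

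All members together took the largest share of counts in the poly(A) libraries. In BC57 cells the share was 6.16% ± 0.186 (SD, n = 3), and in urothelium 6.23% ± 0.0791. The libraries of the 2 samples overlapped there, at 5.94% to 6.29% against 6.16% to 6.32%. In 2 ng Ovation FF libraries the share was 3.54% ± 0.129 in BC57 and 2.87% ± 0.107 in urothelium. In 2 ng SMARTer FF libraries it was 3.56% ± 0.0953 in BC57 and 3.15% ± 0.0815 in urothelium. The 2 samples did not overlap in either kit, whereas they did with poly(A) selection. Counted outside mitochondrially encoded genes, this pattern changed. With poly(A), BC57 held 5.999% to 6.339% and urothelium 6.342% to 6.482%, without overlap. In 2 ng SMARTer FF libraries they overlapped, at 3.65% to 3.86% and 3.40% to 3.70%. In 2 ng Ovation FF libraries they did not, at 3.55% to 3.79% and 3.03% to 3.25%. In bulk RNA, fewer cells of a type and less RNA per cell cannot be told apart.

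Fixation went with a lower mean share in each of the 10 pairs of kit, input and sample, and in 9 of them every FFPE library was below every FF library. Ovation FFPE libraries held 2.81% to 3.08% in BC57 and 2.36% to 2.60% in urothelium over the 3 inputs, below every FF library of the same sample except the 250 pg library named above. SMARTer FFPE libraries held 2.56% to 2.95% in BC57, against 3.45% to 3.64% in FF. In urothelium they held 1.08% to 3.05%, against 3.06% to 3.20%. Mitochondrially encoded genes had a higher median share of counts in FFPE in 3 of the 4 combinations of kit and sample: 5.09% in FF and 14.3% in FFPE for Ovation BC57, 9.38% and 11.9% for Ovation urothelium, and 6.05% and 11.5% for SMARTer BC57. In SMARTer urothelium it was lower in FFPE, at 12.6% and 11.1%. Counted outside mitochondrial genes, the 2 ng Ovation share was 3.70% ± 0.136 in FF and 3.38% ± 0.130 in FFPE BC57. In urothelium it was 3.14% ± 0.112 in FF and 2.79% ± 0.104 in FFPE. The 2 ng SMARTer share so counted was 3.65% to 3.86% in FF and 2.84% to 3.34% in FFPE BC57. In SMARTer urothelium it was 3.40% to 3.70% in FF and 1.17% to 3.43% in FFPE, so the libraries overlapped there. The lowest of these was library 3. Pseudogenes of similar name took 0.0135% to 0.0175% of counts in poly(A) libraries, 0.0635% to 0.119% in Ovation and 0.0603% to 0.192% in SMARTer libraries.

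**Figure D1:**
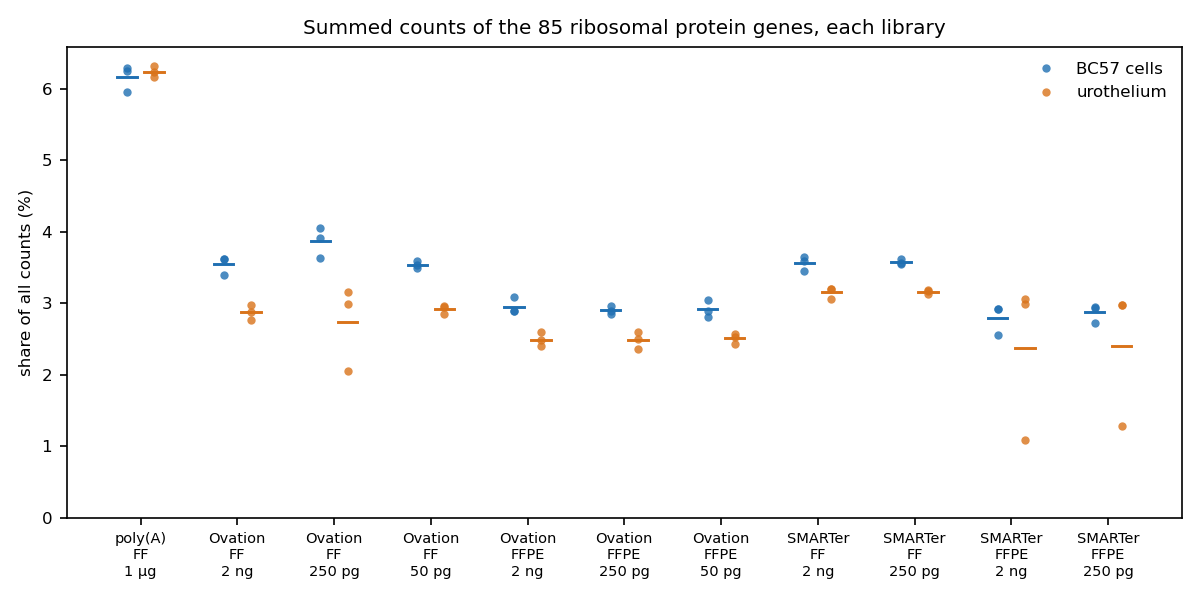
Share of all counts (%, vertical axis) that fell on the 85 ribosomal protein genes in each of the 66 libraries, by kit, preservation and input; points are libraries, bars the mean of 3, blue BC57 cells and orange urothelium. Poly(A) libraries sit between 5.94% and 6.32%, all others at or below 4.05%, and the lowest 2 points, 1.08% and 1.28%, are the SMARTer FFPE urothelium libraries numbered 3.

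Levels per length were compared in the poly(A) libraries, as CPM per kilobase of coding sequence. The median over the 85 genes was 1430 in BC57 and 1553 in urothelium. Rpl41, which encodes a peptide of 75 coding bases, was highest in both samples, at 9912 ± 235 in BC57 and 5682 ± 324 in urothelium (SD, n = 3). Coding length leaves out the untranslated regions, which weigh most in so short a gene. In BC57 the next levels were those of Rps2 (3395 ± 83.9), a small-subunit protein near the mRNA entry site, the acidic stalk protein gene Rplp1 (3351 ± 75.4), Rps29 (3180 ± 176) and Rps18 (2983 ± 188). The ranges of Rps2 and Rplp1 overlapped. In urothelium the order after Rpl41 was Rps29 (4478 ± 120), Rplp1 (4370 ± 25.8), Rps27 (3811 ± 167) and Rps24 (2673 ± 50.4).

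The lowest levels belonged to paralogues and a retrocopy. Rpl7l1 stood at 255 ± 2.62 CPM per kilobase in BC57 and 85.9 ± 5.41 in urothelium, and the retrocopy Rps27rt at 5.11 ± 1.68 and 9.64 ± 4.45. The germline-type paralogue Rpl10l had no count in any poly(A) library, and Rpl39l and Rpl3l, the second known from muscle, stayed at or below 0.529 CPM per kilobase in each poly(A) library. Over all 66 libraries Rpl10l had 7 counts, Rpl39l 23 and Rpl3l 101, at most 20 in one library. These 3 passed no filter on low counts, which left 82 of the 85 members tested in every comparison.

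The first comparison asked which ribosomal protein genes differ between cancer cells and normal tissue in the poly(A) reference. Of the 82 tested, 35 rose and 27 fell in BC57 (edgeR quasi-likelihood test, Benjamini-Hochberg adjusted p under 0.05 over all genes, here "called"). Of all genes tested, 42.8% rose and 48.5% fell. The median log2 fold change was 0.05 for the members and -0.12 for all genes. Scaling decided the balance: with upper quartile scaling 26 rose and 40 fell, and with library totals 25 and 42. Those scalings lower every log2 fold change by 0.13 and 0.14, that of all genes alike. The shares of all genes above belong to the main fit and not to those scalings. Large-subunit genes were called higher in 25 and lower in 10 of 49 cases, small-subunit genes in 10 and 17 of 33.

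Rps2 showed the largest rise. Its level was 3154, 3037 and 3211 CPM in the BC57 libraries and 870.1, 966 and 1026 CPM in urothelium. Every BC57 library was above every urothelium library (log2 fold change 1.72, SE 0.050, edgeR adjusted p = 4.15e-18). Rpl7a, of the large subunit, stood at 1338, 1331 and 1329.7 CPM against 578, 656 and 647 (log2 fold change 1.09, SE 0.045, edgeR adjusted p = 1.62e-15). Rpl41 was at 792, 756 and 794 CPM against 378, 426 and 415 (log2 fold change 0.94). Neither gene's libraries overlapped between samples.

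Rps27, a zinc-finger protein of the small subunit, fell most. It was measured at 382, 344 and 377 CPM in BC57 and at 884, 889.9 and 974 CPM in urothelium (log2 fold change -1.32, SE 0.047, edgeR adjusted p = 1.60e-16). Rps6, the small-subunit protein phosphorylated downstream of mTOR, was at 392, 361 and 387 CPM against 740.1, 729 and 776 (log2 fold change -0.98, SE 0.042, edgeR adjusted p = 3.35e-15). Rpl37a was at 363, 322 and 368 CPM against 644, 671 and 684 (log2 fold change -0.92, SE 0.047, edgeR adjusted p = 6.09e-14). All 3 genes were lower in every BC57 library than in any urothelium library. Rpl13a, known as part of an inflammatory translation-control complex, fell by 0.70 on the log2 scale, and Rps19, the gene most often mutated in Diamond-Blackfan anaemia, fell by 0.53.

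The stalk genes differed among themselves. Rplp0, the stalk base, rose (2892 ± 65.9 CPM against 2056 ± 114, SD, n = 3; log2 fold change 0.49), while its partner Rplp1 fell (1204 ± 31.4 against 1425 ± 14.8; log2 fold change -0.24). Rplp2 was not called, at 619 ± 37.1 and 606 ± 47.9 CPM (edgeR adjusted p = 0.580). Rpl5 and Rpl11 bind Mdm2 together when ribosome assembly fails. Rpl5 rose by 0.20 on the log2 scale and Rpl11 was not called, at 537 ± 12.6 and 533 ± 26.9 CPM (edgeR adjusted p = 0.841). Rpl3 rose with a log2 fold change of 0.75, Rpsa with 0.16 and the ubiquitin fusion gene Rps27a with 0.15. Under library-total scaling these last differences shift by 0.14, close to the size of those of Rpsa and Rps27a.

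The expressed paralogues rose in BC57, each by more than its partner. Rpl7l1 was at 198, 195 and 199.98 CPM against 56.8, 59.2 and 65.5 in urothelium (log2 fold change 1.70, SE 0.047, edgeR adjusted p = 1.57e-18), whereas Rpl7 changed by 0.18. Rps27l, a target of p53, was at 136, 130.3 and 135 CPM against 59.8, 58.6 and 59.7 (log2 fold change 1.17, SE 0.041, edgeR adjusted p = 9.06e-17), whereas Rps27 fell. Rpl36al rose by a log2 fold change of 0.99 and Rpl36a by 0.25. Rpl22l1, which in lymphoid cells is held down by its partner's protein, rose by 0.53 while Rpl22 fell by 0.53. As counts relative to the partner, Rps27l made up 36.5% ± 1.26 of Rps27 in BC57 and 6.49% ± 0.330 in urothelium (SD, n = 3), Rpl22l1 63.0% ± 1.90 and 30.2% ± 2.33 of Rpl22, and Rpl7l1 14.9% ± 0.120 and 5.17% ± 0.499 of Rpl7. These ratios do not depend on scaling, and the libraries of the 2 samples did not overlap in any of them.

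Genes outside the name rule were set beside the members, from lists chosen with earlier results known. Among ribosomal proteins with other names, Rack1 rose (log2 fold change 0.56) and Fau was not called (-0.02, edgeR adjusted p = 0.729). The lists are to be read against the 42.8% of all genes that rose and the 48.5% that fell in this comparison. Of 28 ribosome assembly and RNA polymerase I genes 28 rose and none fell, with a median log2 fold change of 2.20. The nucleolar protein gene Nop56 was at 424 ± 5.55 CPM against 56.6 ± 0.763 and Nop14 at 284 ± 2.52 against 39.5 ± 3.38 (SD, n = 3). Mitochondrial ribosomal protein genes rose in 70 and fell in 4 of 77 cases, with a median of 1.01. Translation factor genes with a TOP start rose in 11 and fell in 4 of 15 cases. The mTOR pathway and TOP regulator genes rose in 5 and fell in 6 of 11, close to the shares of all genes. The fibroblast markers given above differ between the samples as well, and their part in these results was not tested.

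The same contrast was then read in the low-input kits. With Ovation FF at 2 ng, 48 members rose and 15 fell in BC57 (of all genes 37.6% rose and 41.4% fell; median log2 fold change of members 0.24). With Ovation FFPE at 2 ng, 58 rose and 10 fell (all genes 36.7% and 40.3%; median 0.38). With SMARTer FF at 2 ng, 41 rose and 15 fell (all genes 36.3% and 41.2%; median 0.19). Across the 82 genes, log2 fold changes of the poly(A) contrast correlated with those of Ovation FF at Pearson r = 0.95 and with those of SMARTer FF at r = 0.96, as a description over genes that share their libraries. A total of 33 members were higher and 7 lower in all 4 of these contrasts. Of all genes tested in each, 32.6% were higher and 34.1% lower in all 4.

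The 7 lower genes were Rps27, Rps27rt, Rps6, Rps29, Rpl37a, Rpl13a and Rpl31. The call of Rps27rt was not stable. With poly(A) it was lost after thinning to equal depth (edgeR adjusted p = 0.0546) and without urothelium library 2 (0.0997). With Ovation FFPE it was lost by DESeq2 (adjusted p = 0.0536) and without urothelium library 1 (edgeR adjusted p = 0.273), urothelium library 2 (0.0714) or BC57 library 3 (0.157). Rps2 kept a log2 fold change of 1.68 (SE 0.067) with Ovation FF, 1.82 (SE 0.060) with Ovation FFPE and 1.63 (SE 0.097) with SMARTer FF. Rps27 gave -1.08, -0.91 and -1.20 in the same order, and Rps6 -0.72, -0.55 and -0.61.

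With SMARTer FFPE at 2 ng only Rpl7l1, Rps2 and Rpl36al rose and no member fell, where 13.7% of all genes rose and 16.3% fell. Rps2 was at 677, 678 and 719 CPM in BC57 and at 234, 196 and 118 CPM in urothelium, the lowest being library 3 (log2 fold change 1.91, SE 0.38, edgeR adjusted p = 0.00934). Without the urothelium library 3, 17 members rose and 11 fell (47.7% of all genes called in either direction), and without that library of both samples, 33 and 14 (62.7% of all genes). Leaving out any one of the first 2 libraries of BC57, or the second of urothelium, left 0 called, and leaving out the first of urothelium left 1 (6.22% to 8.50% of all genes in these 4 fits). Same-numbered libraries of the 2 samples deviated together, but those numbered 1 and 2 did so almost as much with another number, and number 3 alone stood apart. With the replicate block 7 members rose and none fell (33.1% of all genes called).

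**Figure D2:**
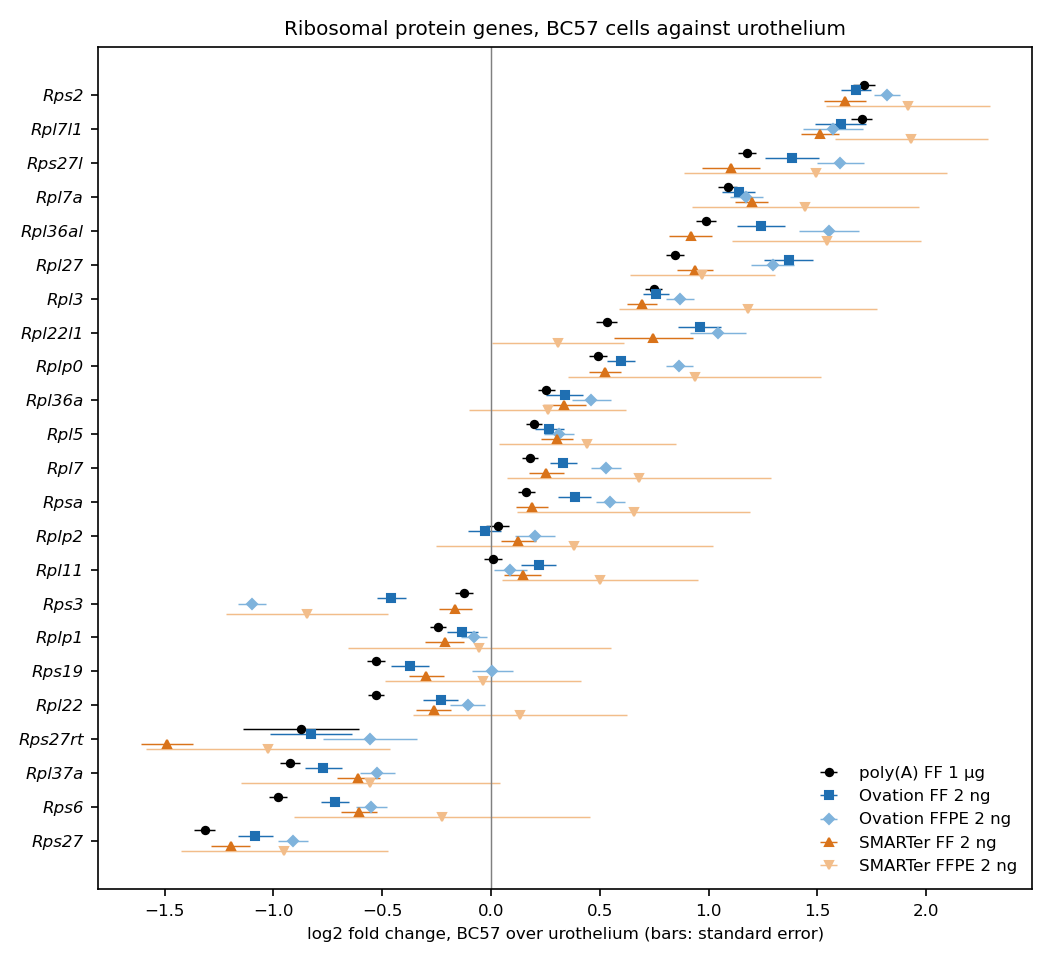
Log2 fold change of BC57 over urothelium (horizontal axis, bars the standard error of the edgeR fit) for 23 ribosomal protein genes in 5 combinations of kit and preservation, 3 libraries a group. Rps2 lies between 1.63 and 1.91 and Rps27 between -1.32 and -0.91 in all 5, and the SMARTer FFPE points carry the widest bars.

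Kits were compared within each FF sample, first Ovation with poly(A). In BC57 71 members fell and 5 rose (of all genes 29.6% fell and 30.3% rose), with a median log2 fold change of -0.60. In urothelium 78 fell and 3 rose (all genes 28.6% and 28.1%), with a median of -0.95. The median over all genes was -0.02 in BC57 and -0.03 in urothelium. Both subunits took part, with medians of -0.56 (large) and -0.63 (small) in BC57 and -0.88 and -1.03 in urothelium. Mitochondrial ribosomal protein genes had medians of -0.32 and -0.41.

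Rps18 fell most with Ovation. It was at 354, 345 and 306 CPM in Ovation and 1308, 1183 and 1349 CPM in poly(A) libraries of BC57 (log2 fold change -1.93, SE 0.057, edgeR adjusted p = 2.90e-20). In urothelium it was at 222, 214 and 193 CPM against 1077, 1035 and 1063 (log2 fold change -2.34, SE 0.064, edgeR adjusted p = 5.60e-23). Groups did not overlap in either sample. Rps14 followed with -1.66 and -2.13, Rps19 with -1.62 and -1.94, and Rps28 with -1.61 and -1.86.

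Few members were higher with Ovation. Rps26, a protein at the mRNA exit channel, was at 822, 812 and 763 CPM in Ovation and 513, 505 and 490.4 CPM in poly(A) libraries of BC57 (log2 fold change 0.67, SE 0.042, edgeR adjusted p = 3.79e-13) and changed by 0.75 in urothelium. Rps20 rose by 0.45 in BC57 and 0.16 in urothelium, and under library-total scaling its value in urothelium was -0.06, with no call. Rps27rt had 1.10, 1.65 and 0.887 CPM in poly(A) and 35.8, 32.03 and 20.4 CPM in Ovation libraries of BC57 (log2 fold change 4.69, SE 0.23). It is a near copy of Rps27 without introns, so counts of the pair may be split between them and its values are uncertain.

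The fall from poly(A) to Ovation differed between the samples. An interaction test over the 4 groups called 70 members, each with a higher log2 fold change in BC57 than in urothelium and none the other way, where 6.71% of all genes were higher and 1.61% lower. The median difference of log2 fold changes was 0.40 for members, 0.11 for all genes and 0.19 for mitochondrial ribosomal protein genes. With RLE scaling the medians were 0.28 for members and -0.01 for all genes. The number called was 44 with RLE scaling, 46 with upper quartile scaling, 59 with library totals, 45 by DESeq2 and 33 after thinning to equal depth, and it ran from 57 to 77 when single libraries were left out. The shares of all genes above belong to the main fit, and those under these settings are not given here.

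Rpl27 showed the widest gap. In BC57 it was at 181, 197 and 161 CPM in Ovation and 493, 462 and 499 CPM in poly(A) libraries. In urothelium it was at 82.7, 55.8 and 63.3 against 299, 321 and 306 (difference of log2 fold changes 0.77, SE 0.12, edgeR adjusted p = 1.57e-05). Rpl34 gave 0.75, Rpl35a 0.74 and Rps21 0.72. Mitochondrial counts, at a median of 0.831% in BC57 and 2.62% in urothelium with poly(A), were 5.09% and 9.38% over the Ovation FF libraries, and their part in the difference was not tested.

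**Figure D3:**
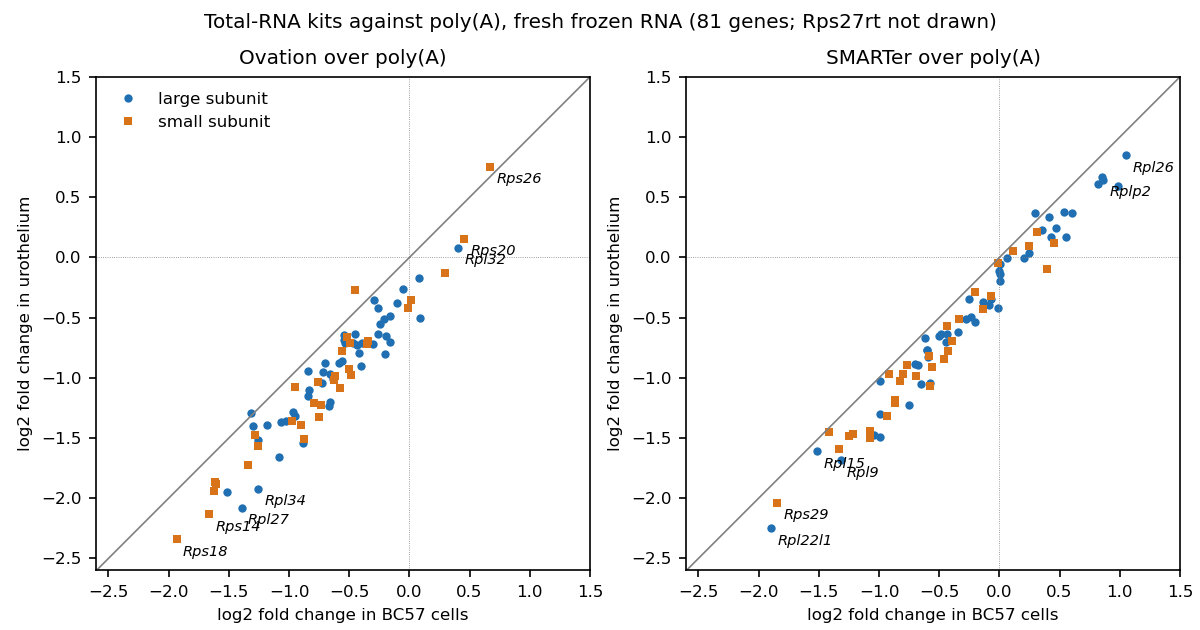
Log2 fold change of Ovation (left) and SMARTer (right) over poly(A) in FF RNA, in BC57 cells (horizontal axis) and urothelium (vertical axis), one point per gene for 81 genes (Rps27rt, above 4 in all, is not drawn); blue large and orange small subunit, grey line equality. Points lie below the line for 79 of the 82 tested members with Ovation and 80 with SMARTer, and Rps18 is lowest on the left, Rpl22l1 on the right.

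SMARTer against poly(A) gave a more mixed picture. In BC57 51 members fell and 20 rose (of all genes 27.9% fell and 29.5% rose), and in urothelium 57 fell and 15 rose (28.7% and 29%). Medians were -0.41 and -0.63. With library totals, which lower every log2 fold change by 0.55 in BC57 and 0.56 in urothelium, 71 fell and 6 rose, and 76 fell and 2 rose. The shares of all genes above are not those of this scaling. Medians were -0.21 and -0.42 for the large subunit and -0.57 and -0.89 for the small subunit.

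Rpl22l1 fell most with SMARTer. It was at 30.2, 39.4 and 28.4 CPM in SMARTer and 124, 126 and 123 CPM in poly(A) libraries of BC57 (log2 fold change -1.90, SE 0.084, edgeR adjusted p = 2.31e-10), and changed by -2.25 in urothelium. Rpl22 moved the other way, by 0.98 in BC57 and 0.59 in urothelium, so that Rpl22l1 made up 8.35% ± 0.972 of Rpl22 counts in BC57 and 4.16% ± 0.931 in urothelium (SD, n = 3) in 2 ng SMARTer FF libraries. With Ovation the figure was 76.5% ± 5.99 and 33.8% ± 4.62. The ratio was higher in BC57 with each of the 3 kits, while its size depended on the kit. Rps29 fell by 1.85 and 2.04 on the log2 scale with SMARTer, and Rpl26 rose by 1.05 and 0.85.

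The low-input kits were also compared with each other at 2 ng, and these comparisons share their libraries with those above. SMARTer gave higher values than Ovation for 44 members in BC57 and lower for 21 (of all genes 26.7% were higher and 26.2% lower). In urothelium the counts were 46 and 18 (all genes 24.6% and 23.9%). With library totals they were 29 and 37, and 38 and 34, after a shift of every log2 fold change by -0.36 and -0.33, for which the shares of all genes are not given. The stalk gene Rplp2 was at 894, 773 and 827 CPM with SMARTer and 194, 191 and 179 CPM with Ovation in BC57 (log2 fold change 2.15, SE 0.076, edgeR adjusted p = 1.29e-16), and the difference was 2.03 in urothelium. Rpl34 differed by 1.84 and 2.28, Rpl15 by -0.98 and -0.94.

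Formalin fixation was examined at 2 ng in each kit. With Ovation, 33 members fell and 19 rose in BC57 (of all genes 15.6% fell and 16.6% rose; median log2 fold change of members -0.07). In urothelium 46 fell and 13 rose (all genes 17.9% and 19.3%; median -0.23). With library totals, which shift every log2 fold change by -0.14, 41 fell and 9 rose in BC57, and the shares of all genes above do not apply there. Across the 82 genes the changes of the 2 samples correlated at Pearson r = 0.91, and 45 members were called in both, 12 higher and 33 lower in each. Of the 10905 genes tested in both, 9.98% were higher and 10.2% lower in each, and 97.7% of all genes called in both had the same direction, so that the shared direction is not particular to the members.

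Longer coding sequences went with a lower FFPE value. Over the 82 genes, Pearson r between log2 coding length and the log2 fold change was -0.55 in BC57 and -0.42 in urothelium with Ovation, and -0.59 and -0.49 with SMARTer, as a description over genes that share their libraries. The 20 shortest genes, up to 351 coding bases, had a median log2 fold change of 0.25 in BC57 with Ovation, and the 20 longest, from 624 bases, -0.32. In urothelium the medians were 0.14 and -0.42. In the comparison of Ovation with poly(A) in BC57, r was -0.12.

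Rpl19, of the large subunit, fell in 3 of the 4 fixation comparisons. With Ovation in urothelium it was at 251, 269 and 239.9 CPM in FFPE and 567, 469 and 464 CPM in FF libraries (log2 fold change -0.98, SE 0.074, edgeR adjusted p = 2.33e-17). In BC57 it was at 484, 395 and 419 CPM against 713, 777 and 667 (log2 fold change -0.73, SE 0.069, edgeR adjusted p = 2.46e-10). Groups did not overlap. Rpl4, one of the longest members, fell by 0.74 in BC57, and Rpl3 by 0.64 in BC57. Shorter genes were also among the 4 largest falls with Ovation. These were Rpl22l1, of 366 coding bases, in both samples and Rps24, of 399, in urothelium.

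Among the genes that rose, 3 short ones of the small subunit had the largest values in BC57. Rps21 was at 244, 264 and 259.7 CPM in FFPE and 165, 179 and 166 CPM in FF libraries of BC57 (log2 fold change 0.59, SE 0.073, edgeR adjusted p = 8.09e-08), and changed by 0.69 in urothelium. Rps29 changed by 0.57 and 0.62, and Rps28 by 0.61 in BC57. Rpl41 rose by 0.38 in BC57 and 0.21 in urothelium. Rplp2 was not called in BC57, at 200.2 ± 30.99 and 202 ± 9.58 CPM (edgeR adjusted p = 0.908).

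**Figure D4:**
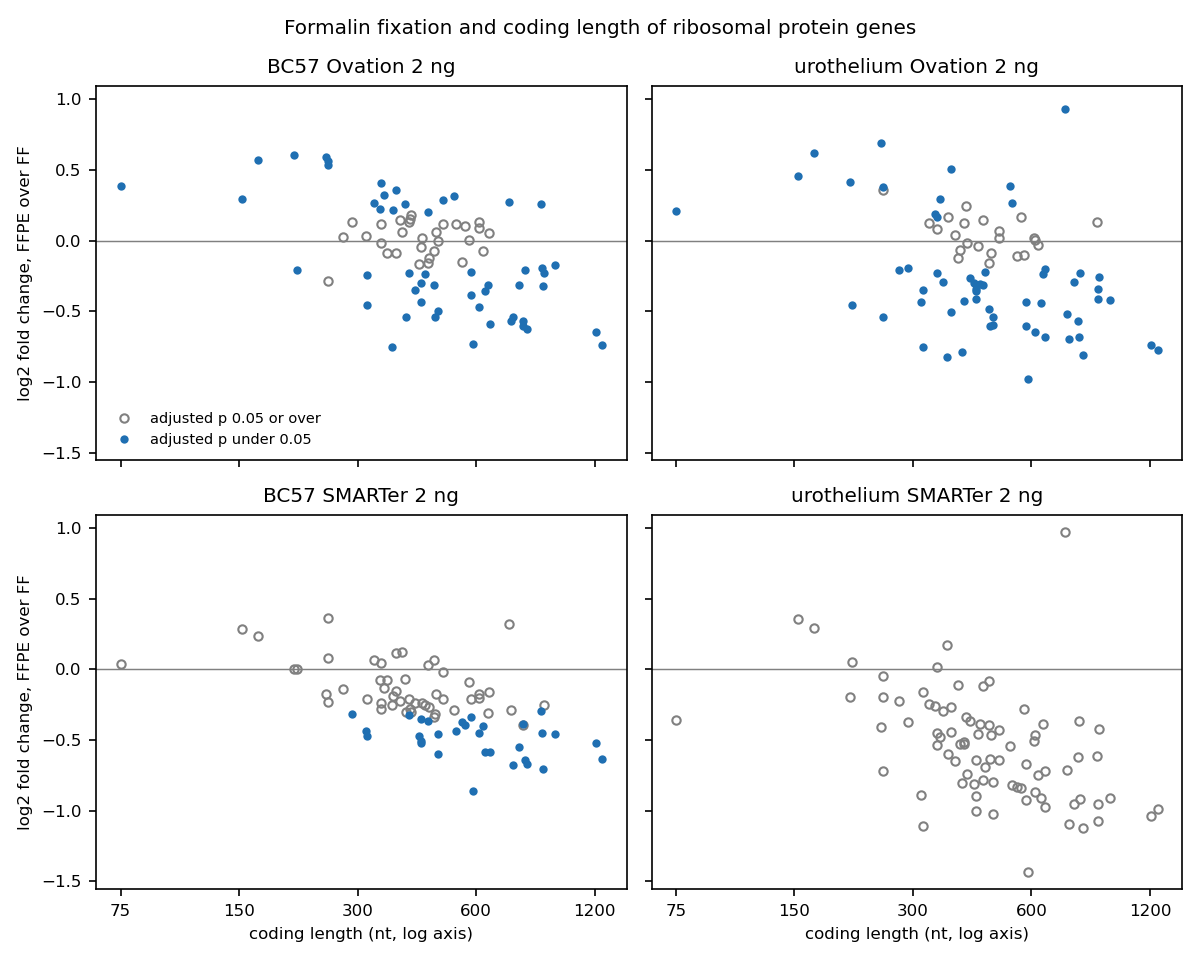
Log2 fold change of FFPE over FF (vertical axis) against coding length in nucleotides (log axis) for 82 ribosomal protein genes, one panel per sample and kit at 2 ng; filled points have an edgeR adjusted p under 0.05. With Ovation the 20 shortest genes have medians of 0.25 and 0.14 and the 20 longest of -0.32 and -0.42, and the high point at the upper right of both urothelium panels is Rps3.

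With SMARTer, 31 members fell and none rose in BC57 (of all genes 8.57% fell and 9.25% rose), with a median of -0.27. Library numbers pair these libraries by their correlation, and with the replicate block 46 fell and 2 rose (25% of all genes called in either direction). The number called dropped to 17 without FF library 1 and to 18 without FF library 2, where 8.73% and 8.59% of all genes were called. Rpl19 was at 612, 573 and 541 CPM in FFPE and 1055, 1010.0 and 1073 CPM in FF libraries (log2 fold change -0.86, SE 0.097, edgeR adjusted p = 5.00e-05).

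In SMARTer urothelium no member was called by edgeR and DESeq2 called 1, where 1.32% of all genes rose and 0.551% fell at the adjusted threshold. An unadjusted p under 0.05 was found for 5 members, and the share of all genes at that unadjusted threshold is not given here. Rpl19 was at 468, 467 and 81.1 CPM in FFPE and 914, 891 and 952 CPM in FF libraries, the low value being that of library 3 (log2 fold change -1.43, SE 0.62, edgeR adjusted p = 0.199). Without library 3 of the FFPE group, 37 members fell and 6 rose, where 27.5% of all genes were called in either direction.

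Rps3, a small-subunit protein with a second role in DNA repair, went against the length pattern. With Ovation in urothelium it was at 1745, 1549 and 1439 CPM in FFPE and 815, 769 and 899 CPM in FF libraries (log2 fold change 0.93, SE 0.063, edgeR adjusted p = 2.93e-19). The FFPE libraries were all above the FF libraries. In BC57 it was at 791, 678 and 699 CPM against 587, 623 and 585, also without overlap (log2 fold change 0.27, SE 0.062, edgeR adjusted p = 0.000755). The difference between the samples was called in the interaction test (difference of log2 fold changes -0.68, SE 0.097, edgeR adjusted p = 6.62e-07). Only 3 of the 82 members were called in that test, in both directions a smaller share than the 4.26% of all genes that were higher and the 1.64% that were lower. Besides Rps3, Rps25 (0.39) and Rpl29 (0.51) had the smaller fall in BC57. Rpl29 was not called without urothelium FF library 1, nor Rps25 without urothelium FFPE library 3, and with library totals neither was.

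Rps3 holds the snoRNA genes Snord15a and Snord15b within its introns. Snord15b counts were 1262 ± 130.2 CPM in Ovation FFPE urothelium at 2 ng and 445 ± 67.1 in FF (plain CPM, SD, n = 3), while Rps3 stood at 1548 ± 149 and 826 ± 64.7. Snord15a was at 88.7 ± 4.93 and 31.8 ± 2.89 CPM in the same groups. In poly(A) urothelium Snord15b was at 0.684 ± 0.238 CPM and Rps3 at 1159 ± 31.04. Rps3 was high in the groups where Snord15b was high, in all 3 inputs of Ovation FFPE urothelium and in SMARTer FFPE urothelium. With the counts of both snoRNAs subtracted from those of Rps3, the remainder in 2 ng Ovation libraries was 198 ± 15.3 CPM in FFPE and 350 ± 22.5 in FF urothelium, and 176 ± 9.55 in FFPE and 397 ± 32.01 in FF BC57. In both samples the remainder was thus lower in every FFPE library than in any FF library, the opposite of Rps3 itself. The subtraction takes every snoRNA count to be a count of Rps3 as well, which the files do not show, and in 1 SMARTer FFPE urothelium library each at 2 ng and 250 pg it gave a negative value. Among other members, Snord32a reached 39.1% of Rpl13a counts in 2 ng Ovation FFPE urothelium and 0.0838% in poly(A) urothelium, and Snora21 reached 37.4% of Rpl23 counts in 250 pg SMARTer FFPE urothelium (both chosen after their values were seen).

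**Figure D5:**
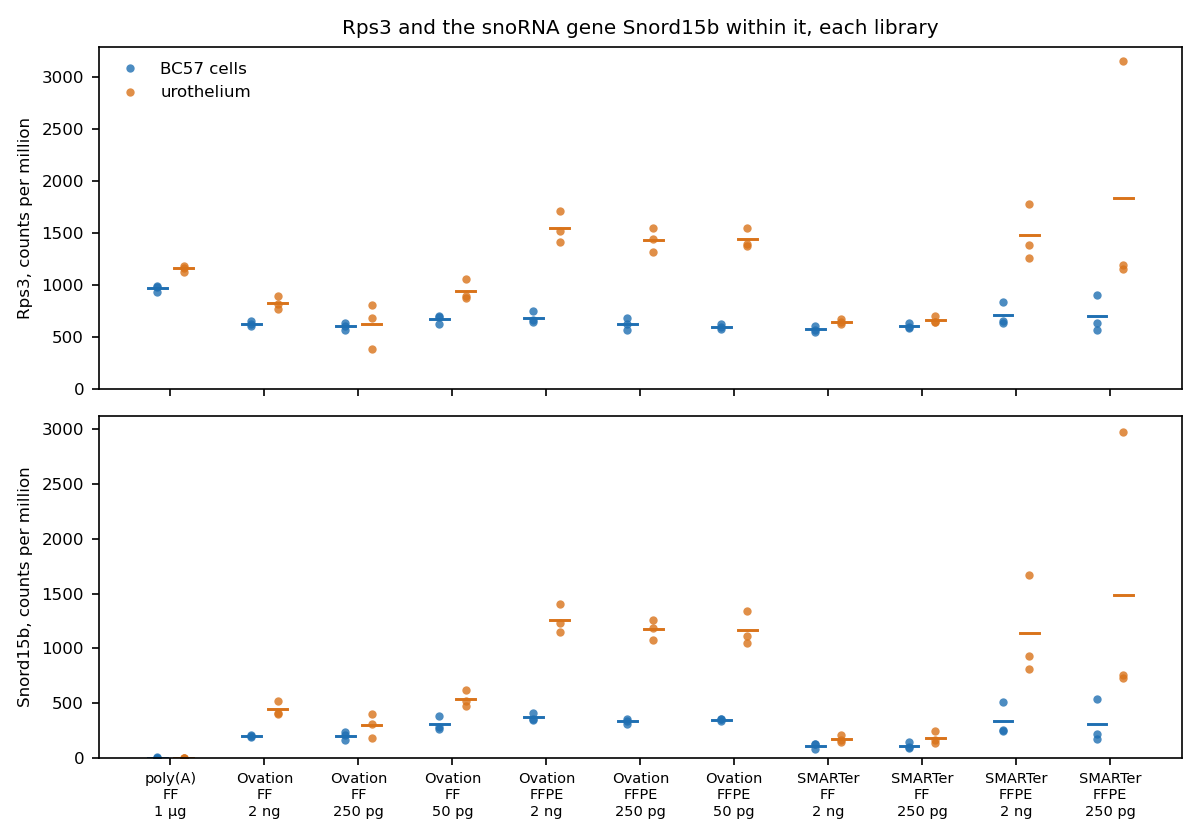
CPM of Rps3 (top) and of the snoRNA gene Snord15b inside it (bottom) in each of the 66 libraries, by kit, preservation and input; points are libraries, bars the mean of 3, blue BC57 cells and orange urothelium. Both genes are highest in FFPE urothelium, and Snord15b is at most 1.23 CPM in poly(A) libraries, where Rps3 is at 967 and 1159 CPM on average.

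Lowering the input from 2 ng to 50 pg called no member in Ovation FF libraries of either sample. At the adjusted threshold 0.0266% of all genes rose and 0.00% fell in BC57, and DESeq2 called 0 members. There 17 members had an unadjusted p under 0.05. The share of all genes at that unadjusted threshold is not given here, so this number has no background to be read against. In urothelium 0.00% of all genes were called in either direction at the adjusted threshold, and DESeq2 called 1 member. An unadjusted p under 0.05 was found for 3 members, with the same limit. Rplp0 was at 1357, 1410.3 and 1323 CPM at 50 pg and 1358, 1465 and 1226 CPM at 2 ng in BC57, and the libraries overlapped (log2 fold change 0.02, SE 0.072). Members' log2 fold changes ran from -0.33 to 0.50 in BC57 and from -0.20 to 0.32 in urothelium. A p over the threshold does not show that the levels were equal.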

How the data were processed

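The 66 libraries were grouped by the labels' sample, kit, preservation and input. Values are raw read counts per gene, which the authors deposited, made with STAR, SAMtools and featureCounts on mm10, per the submitters' processing notes; for tool versions, gene annotation and strand setting: not given in the sources used here. Without a known strand setting, counts of overlapping, antisense or near-identical genes (pseudogenes, Rps27rt and Rps27, snoRNAs in introns) are uncertain. Symbols and coding lengths came from GENCODE M21, which matched 37607 of 39179 gene IDs; the rest took up to 2.48% of a library. Each comparison was fitted on all genes of its own groups with edgeR 4.0.16 in R 4.3.3 (filterByExpr, TMM scaling, quasi-likelihood test), with p-values adjusted by Benjamini-Hochberg over all genes tested and a threshold of 0.05. The standard error is the log2 fold change divided by the square root of F. CPM within a comparison are TMM-scaled; shares, levels per kilobase and snoRNA values use total counts. The scripts were tested on simulated data. Alternatives were DESeq2 1.42.0, other scalings, no filter, thinning, the replicate number as a block and leaving out libraries. Shares of all genes belong to the main fit unless another setting is named with them. The block was read as a pairing only where all 3 same-numbered pairs correlated above 0.1: SMARTer FFPE BC57 with urothelium (0.25, 0.24, 0.35, with 0.21, 0.23 and -0.29 the highest with another number) and SMARTer FFPE with FF in BC57 (0.22, 0.16, 0.28); that rests on the correlations alone. Named genes were a set followed throughout (stalk genes, Rpsa, Rps6, Rps19, Rps27a, Rpl3, Rpl5, Rpl11, Rpl13a, Rpl41 and paralogues with their partners), up to 4 members called per direction with the largest log2 fold change in a comparison, the 5 highest and lowest levels per kilobase, and up to 2 genes per direction of each list. Members and lists were chosen with earlier results of these data known. Results for a few genes are not reported here.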

Additional observations from a re-analysis of the deposited data

Results flagged for a closer look

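Differences between BC57 and urothelium in the response to fixation were called by the interaction test for 3 of the 82 members in 2 ng Ovation libraries, 2 higher and 1 lower, where 4.26% of all genes were higher and 1.64% lower. The members thus stood no higher than all genes in this test. The difference of log2 fold changes (BC57 minus urothelium) was -0.68 for Rps3, 0.39 for Rps25 and 0.51 for Rpl29. FFPE values of Rps3 rose more in urothelium, and the part of the snoRNAs within it was not tested. Differences in the response to the kit, Ovation against poly(A), were called for 70 of the 82 members, all in one direction, where 6.71% of all genes were called in that direction and 1.61% in the other. The largest were those of Rpl27 (0.77), Rpl34 (0.75), Rpl35a (0.74) and Rps21 (0.72). Groups of 3 libraries are too small for the test of single outlying samples.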

How the results depend on the processing

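Of 262 recomputed counts of called members, 236 stayed within 1.5 times the value first given, and of 1466 recomputed values of named members 1437 kept their direction and their side of the threshold. Shares of all genes are not given beside the counts in this paragraph, which describe the stability of the calls alone. For BC57 against urothelium in SMARTer FFPE libraries, 3 members were called, 9 with DESeq2, 6 with library totals, 6 after thinning, 7 with the replicate block, 0 to 28 when single libraries were left out and 47 without the libraries numbered 3. For fixation in SMARTer BC57, 31 became 48 with the replicate block and 17 to 33 without single libraries. For fixation in SMARTer urothelium, 0 became 1 with DESeq2, 0 to 43 without single libraries and 43 without library 3. For 50 pg against 2 ng in urothelium DESeq2 called 1. For the fixation interaction, 3 became 1 with library totals, 7 with the replicate block and 2 to 5 without single libraries. For the kit interaction, 70 became 45 with DESeq2, 44 with RLE scaling, 46 with upper quartile scaling, 33 after thinning and 57 to 77 without single libraries. Rps20 reversed in Ovation against poly(A) in urothelium with library totals (log2 fold change -0.0555). Apart from the thinning, which tests fewer counts, the causes were not tested. In the comparisons not named in this paragraph the replicate block kept the count of calls within 1.5 times. Rpl10l, Rpl39l and Rpl3l had too few counts to pass the filter, in the deep poly(A) libraries as well, and were not tested.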
